A study of Mus musculus with 6 samples.

Results

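Chemokines are small secreted proteins that direct the movement of leukocytes, and their receptors are G protein-coupled receptors on the cells that move. The ligands are named for the spacing of their first cysteines (CC, CXC, CX3C and XC), and each class has its own receptors, beside atypical receptors (Ackr) that take up ligand without the usual signal. In blood-forming tissue they hold progenitors next to stroma, lead T-cell precursors into the thymus, bring monocytes to inflamed tissue and guide maturing dendritic cells to lymph nodes. The genes described here are those whose symbol names them a chemokine or a chemokine receptor and that had a probe set with a single gene symbol, 53 of 18193 such genes on the array. They were 33 ligands and 20 receptors.

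The series compared 2 genotypes of mouse embryonic stem cells (ESCs) that had been differentiated into cells labelled ESC-derived T-cell progenitors. The cells were Gata3+/-, with 1 disrupted copy of the T-lineage transcription factor gene Gata3, or Gata3-/-, with no intact copy, and each genotype had 3 arrays numbered 1 to 3. Both genotypes were grown on OP9 and OP9-DL1 cells, mouse stromal lines of which the second carries a Notch ligand, with IL-7 and Flt3L, and were sorted by flow cytometry before RNA was isolated. There was no array of cells with 2 intact copies. The sources used here do not give the sort markers, the number of stem cell clones or the part of Gata3 that was disrupted. The labels call the replicates biological without saying what separated them, so the p-values reflect no more than the spread among these arrays, which may be technical.

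Levels are log2 GC-RMA intensities, and differences are Gata3-/- minus Gata3+/- on that scale with their standard error (SE). GC-RMA corrects background from probe sequence, and low values gather at a floor that differs between probe sets, so a higher level of 1 gene than of another is not read as a result here. A gene counted as measured when its probe set reached a log2 value of 4 on at least 3 of the 6 arrays. Tests were limma fits across 20102 probe sets with Benjamini-Hochberg adjustment, and a gene passed at an adjusted p under 0.05. With 3 arrays against 3 an exact permutation test of 1 gene cannot go below p = 0.1. The number of arrays limits the precision.

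Some facts of the whole series bear on these genes. The Gata3 probe set stood at 5.39, 6.40 and 5.86 on the Gata3+/- arrays and at 5.87, 6.44 and 5.48 on the Gata3-/- arrays. It does not check the genotypes, since the disrupted part of the gene is not known here. None of 15 T-cell markers on the array, Cd3e and Bcl11b among them, was measured, which goes against the label, whereas 12 of 14 macrophage and monocyte markers and 10 of 11 dendritic cell markers were. In such bulk samples fewer cells of a type and less RNA per cell cannot be told apart. The arrays numbered 2 stood apart in both genotypes. The summed intensity of 19 OP9 stroma markers was 9082 on Gata3+/- array 2 and 6736 on Gata3-/- array 2, against 15564 to 28041 on the other 4.

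Of the 53 genes 30 were measured, 19 ligands and 11 receptors, and 29 of the 30 reached the minimum on all 6 arrays. The exception was Cxcl2, at 2.71 on Gata3+/- array 2. The remaining 23 were under the minimum on at least 5 arrays, 21 of them on all 6. Just inside the minimum lay Ackr1, with values from 4.10 to 4.77, and just outside it Cxcl11, a ligand induced by interferon, with values from 3.73 to 4.13.

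**Figure D1:**
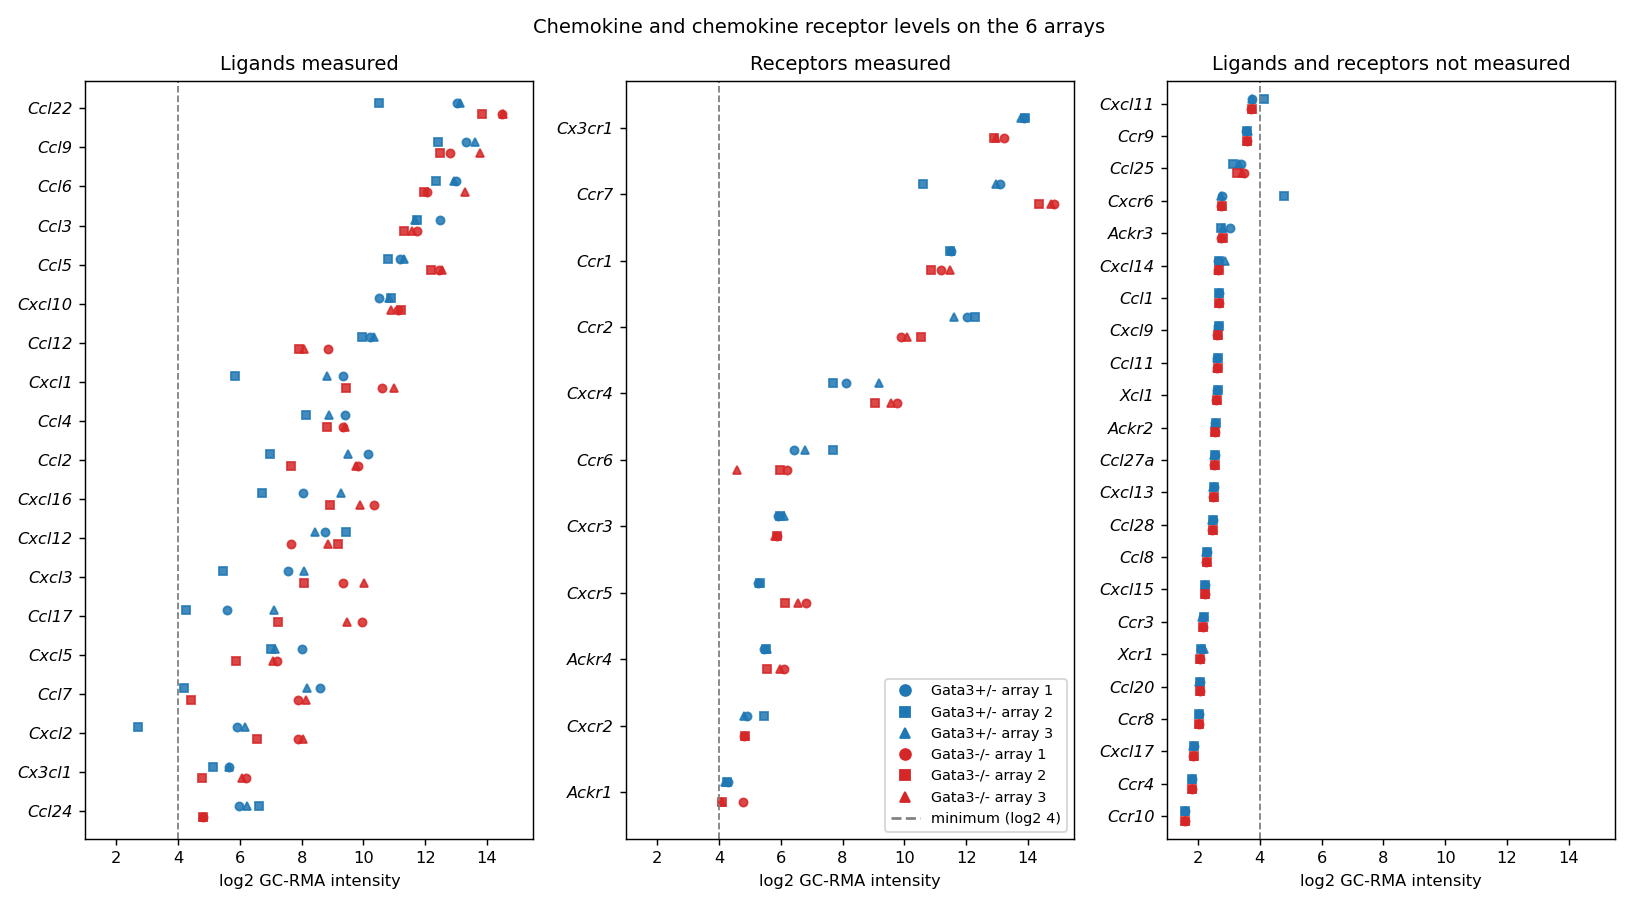
Log2 GC-RMA intensity (horizontal axis) of each chemokine and receptor on the 6 arrays, with Gata3+/- in blue, Gata3-/- in red and the array number as the marker shape; the dashed line is the minimum of 4. Of 53 genes 30 were measured, and Gata3+/- array 2 was the lowest of the 6 arrays for 13 of them; levels of different genes are not on a common scale.

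The receptors that were not measured include several that mark lymphoid or innate lymphoid cells. Ccr9, the receptor of thymus-homing progenitors, stood between 3.56 and 3.61 on all arrays. Another of its probe sets reached 4.55 on Gata3-/- array 1 only, and its ligand Ccl25 stayed under the minimum too. Ccr4 and Ccr8, receptors of helper T-cell subsets, Ccr10, a receptor of skin-homing and mucosal lymphocytes, Ccr3, the eotaxin receptor, and Xcr1, the receptor of cross-presenting dendritic cells, were under it on every array, as were the atypical receptors Ackr2 and Ackr3. Cxcr6, the receptor for Cxcl16, reached 4.80 on Gata3+/- array 2 and stood between 2.73 and 2.77 on the other 5. Levels under the minimum do not show that a transcript was absent.

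The 14 ligands that were not measured were Ccl1, Ccl8, Ccl11, Ccl20, Ccl25, Ccl27a, Ccl28, Cxcl9, Cxcl11, Cxcl13, Cxcl14, Cxcl15, Cxcl17 and Xcl1. They include Cxcl9, which with Cxcl11 is a ligand of Cxcr3, Cxcl13, the ligand of Cxcr5, Ccl20, the ligand of Ccr6, and Xcl1, the ligand of Xcr1. Neither Ccr6 nor Cxcr5 thus had its main ligand measured. The ligands of Ccr7, Ccl19 and the Ccl21 group, share probe sets with several genes and were not analysed here.

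Between the genotypes 6 of the 30 measured genes passed (20.0%), against 5.27% of all 10302 genes measured. Ccl5 and Cxcr5 rose in Gata3-/- arrays, where 2.86% of all genes rose, and Ccr2, Cx3cr1, Ccl12 and Ccl24 fell, where 2.41% of all genes fell. Differences over 1 in size were present for 14 of the 30 (46.7%) against 4.30% of all genes, but 9 of those 14 did not pass. The median difference was 0.14 for the 30 and -0.02 for all genes, and the median size regardless of sign was 0.75 and 0.18. At an unadjusted p under 0.05 in limma there were 14 of the 30 (46.7%) against 25.8% of all genes. The genotypes did not overlap for 15 of the 30 (50.0%) against 33.6% of all genes, with 8 higher in Gata3-/- arrays (16.9% of all genes) and 7 lower (16.7%). The median SE was 0.40 for the 30 and 0.12 for all genes, so these genes also varied more between arrays of 1 genotype. This held mostly for the ligands, with a median SE of 0.45 against 0.18 for the receptors.

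**Figure D2:**
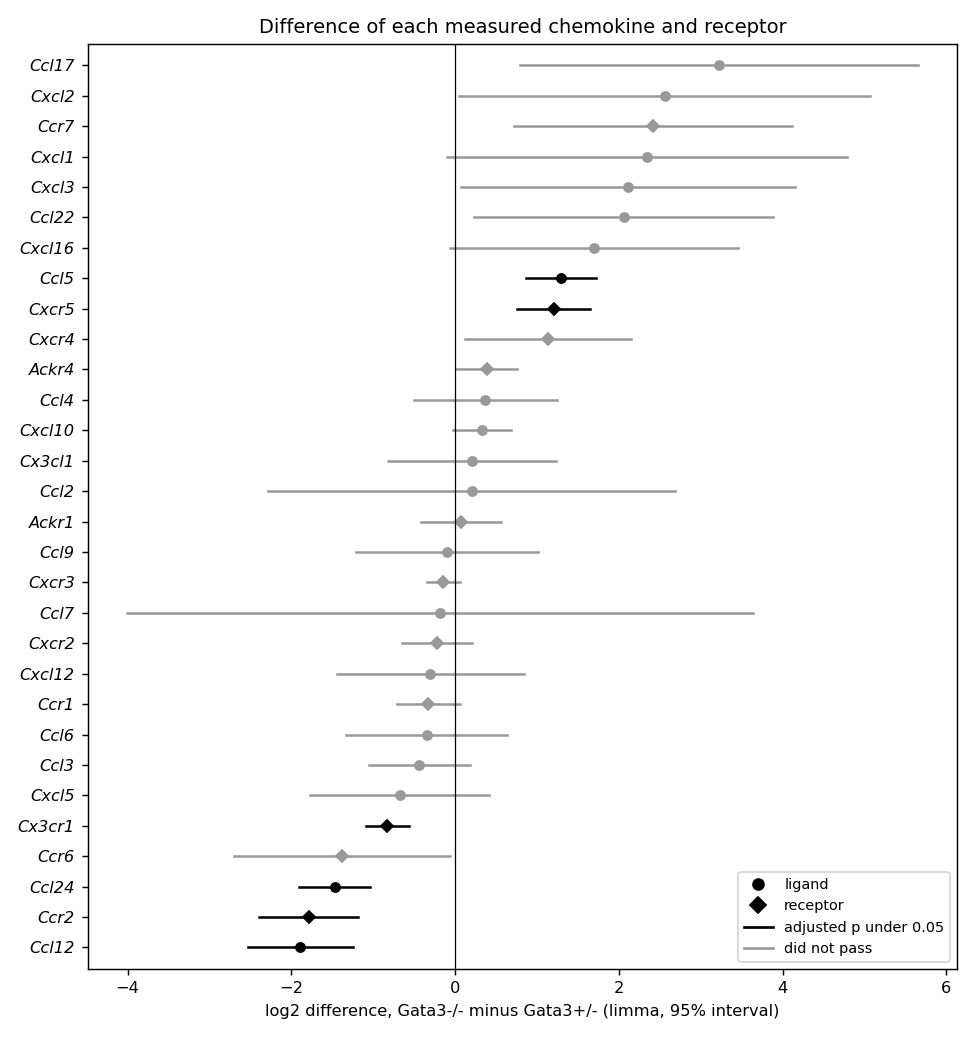
Difference of each measured gene between Gata3-/- and Gata3+/- arrays on the log2 scale (horizontal axis), with its 95% interval from limma; circles are ligands, diamonds receptors, and black marks the 6 genes that passed. The 4 that fell and the 2 that rose have narrow intervals, while Ccl17, Cxcl2 and Ccr7 have larger differences with wide intervals and did not pass.

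Ccr2, the receptor that brings monocytes out of the marrow, stood at 12.02, 12.29 and 11.60 on the Gata3+/- arrays and at 9.89, 10.55 and 10.10 on the Gata3-/- arrays. Every Gata3-/- value lay below every Gata3+/- value. The difference was -1.79 (SE 0.24, limma adjusted p = 0.0342), which is 3.46-fold lower. A second probe set for Ccr2 differed by -1.94 (SE 0.51) without passing, its Gata3+/- values lying between 10.37 and 12.05, and another, at 5.62 to 6.05, differed by -0.19. The remaining one stood between 3.95 and 4.57 on Gata3+/- arrays and between 2.66 and 2.78 on Gata3-/- arrays and was not tested.

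Its ligand Ccl12, a monocyte attractant of the mouse, stood at 10.22, 9.96 and 10.33 on the Gata3+/- arrays and at 8.84, 7.92 and 8.07 on the Gata3-/- arrays. Ccl12 was lower on all 3 Gata3-/- arrays, by a difference of -1.89 (SE 0.26, limma adjusted p = 0.0344), or 3.71-fold. The other ligands of Ccr2 that were measured did not pass. Ccl2 stood at 10.13, 6.99 and 9.50 on Gata3+/- arrays and at 9.82, 7.64 and 9.77 on Gata3-/- arrays, and the genotypes overlapped. Its difference was 0.20, with a 95% interval from -2.28 to 2.69. Ccl7 stood at 8.60, 4.19 and 8.18, then at 7.89, 4.41 and 8.13, so that both arrays numbered 2 were low in either genotype. Its difference was -0.18 with a 95% interval from -4.01 to 3.64. The low arrays numbered 2 widen both intervals. Without them, in a fit added after seeing the data, Ccl2 differed by -0.02 (SE 0.24) and Ccl7 by -0.38 (SE 0.19), against -1.82 (SE 0.29) for Ccl12.

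Cx3cr1, the fractalkine receptor of monocytes and tissue macrophages, stood at 13.88, 13.89 and 13.79 on Gata3+/- arrays and at 13.23, 12.90 and 12.95 on Gata3-/- arrays. It fell by 0.83 on the log2 scale (SE 0.11, limma adjusted p = 0.0323), a 1.78-fold lower level that separated the genotypes on every array. Its other measured probe set differed by -1.09 (SE 0.31) and did not pass. Its ligand Cx3cl1, fractalkine, stood at 5.46 ± 0.30 and 5.67 ± 0.79 (SD, n = 3), differing by 0.21 (95% interval -0.82 to 1.23).

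Ccl24, an eotaxin that attracts eosinophils, stood at 5.96, 6.63 and 6.22 on Gata3+/- arrays and at 4.80 on each of the 3 Gata3-/- arrays. The Gata3-/- values lay within 0.0023 of each other, as do probe sets at their floor. The fitted difference of -1.47 (SE 0.17, limma adjusted p = 0.0289) therefore depends on where that floor lies. Its receptor Ccr3 was not measured. The macrophage and monocyte markers beside these falls had a summed intensity of 109698 to 130180 on Gata3+/- arrays and 81942 to 97608 on Gata3-/- arrays. Without the brightest of them, the complement gene C1qb, the sums were 72363 to 85735 and 57061 to 65470. Of 12 measured markers 10 had a negative difference, and 1, the Fc receptor gene Fcgr1, fell by 0.70 (SE 0.12). The part of these markers in the lower Ccr2, Cx3cr1, Ccl12 and Ccl24 was not tested.

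Ccr1, a receptor of monocytes and neutrophils for inflammatory ligands, stood at 11.51, 11.49 and 11.50 on Gata3+/- arrays and at 11.18, 10.88 and 11.47 on Gata3-/- arrays. The difference of -0.33 (SE 0.16, limma adjusted p = 0.283) did not pass, and Gata3-/- array 3 lay close to the Gata3+/- values. Ccr1 had another measured probe set, for which the genotypes did not overlap. It differed by -0.64 (SE 0.21, limma adjusted p = 0.151) and did not pass.

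The Ccr1 ligands Ccl9, Ccl6 and Ccl3 did not pass either, while its ligand Ccl5, described below, did. Ccl9, a CC ligand of mouse myeloid cells, stood at 13.32, 12.42 and 13.60 and at 12.80, 12.47 and 13.78, with a difference of -0.10. Ccl6, a related ligand, stood at 13.00, 12.36 and 12.95 and at 12.04, 11.95 and 13.27, differing by -0.35 (95% interval -1.34 to 0.64). For both genes Gata3-/- array 3 was the highest of the 6 arrays, and the genotypes overlapped. Ccl3, a ligand of Ccr1, stood at 12.49, 11.73 and 11.67 and at 11.72, 11.30 and 11.56, with a difference of -0.44. Ccl4, its neighbour and relative, had means of 8.81 ± 0.64 and 9.18 ± 0.32 (SD, n = 3).

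Ccl5, a ligand of Ccr1 made by T cells and activated myeloid cells, rose. It stood at 11.18, 10.79 and 11.32 on Gata3+/- arrays and at 12.45, 12.18 and 12.54 on Gata3-/- arrays. All 3 Gata3-/- arrays lay above all 3 Gata3+/- arrays, by a difference of 1.30 (SE 0.17, limma adjusted p = 0.0335), or 2.46-fold. No other measured ligand passed in the upward direction in the same fit, although Ccl22, Ccl17, Cxcl1 and Cxcl2 were also higher on all 3 Gata3-/- arrays.

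Cxcr5, the receptor that draws B cells and follicular T cells to Cxcl13, was the receptor that rose. It stood at 5.26, 5.32 and 5.31 on Gata3+/- arrays and at 6.82, 6.12 and 6.56 on Gata3-/- arrays, a difference of 1.20 (SE 0.18, limma adjusted p = 0.0359), or 2.30-fold. The Gata3+/- values spanned 0.06 at a low level, and whether they lie at a floor is not known. With the replicate number as a block in limma Cxcr5 did not pass (adjusted p = 0.0544). Of 8 B-cell markers on the array 3 were measured, all with negative differences, and T-cell markers were not measured.

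Ccr7, the receptor that takes maturing dendritic cells and lymphocytes to lymph nodes, had the largest difference among the receptors but did not pass. It stood at 13.10, 10.62 and 12.95 on Gata3+/- arrays and at 14.83, 14.35 and 14.74 on Gata3-/- arrays. Every Gata3-/- value was higher than every Gata3+/- value, with Gata3+/- array 2 more than 2 log2 units under its group. The difference was 2.42 (SE 0.69, limma adjusted p = 0.108), with a 95% interval from 0.72 to 4.11.

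Ccl22 and Ccl17, neighbouring genes whose products are ligands of Ccr4 and are made by mature dendritic cells, were both lowest on Gata3+/- array 2. Ccl22 stood at 13.03, 10.51 and 13.11 on Gata3+/- arrays and at 14.47, 13.85 and 14.50 on Gata3-/- arrays, a difference of 2.06 (SE 0.74, limma adjusted p = 0.172). Ccl17 stood at 5.60, 4.24 and 7.10 and at 9.94, 7.22 and 9.45, a difference of 3.22 (SE 0.98, limma adjusted p = 0.125). The genotypes did not overlap for either gene, although Gata3-/- array 2 exceeded Gata3+/- array 3 by little for Ccl17. Ccr4 itself was not measured.

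The dendritic cell markers were taken without Ccr7 and Xcr1, which are counted here as receptors. Their summed intensity was 49706 to 69048 on Gata3+/- arrays and 80237 to 99497 on Gata3-/- arrays, but most of it came from Fscn1, an actin-bundling protein of mature dendritic cells. Fscn1 had means of 14.56 ± 0.74 and 15.73 ± 0.19 (SD, n = 3), lowest on Gata3+/- array 2, and its difference of 1.17 (SE 0.37, limma adjusted p = 0.137) did not pass. Without Fscn1, left out after its values were seen, the sums were 31240 to 36297 and 32217 to 41527 and overlapped. The mean log2 of the 10 measured markers was 10.24 to 10.54 and 10.19 to 10.59, which overlapped too. Among 10 measured markers the conventional dendritic cell factor Zbtb46 rose, by 1.89 (SE 0.35). Siglech, a receptor of plasmacytoid dendritic cells, and Irf8, a factor of dendritic cell development, fell, and 7 did not pass. Their part in the levels of Ccr7, Ccl22 and Ccl17 was not tested.

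Cxcl1, Cxcl2 and Cxcl3 are neighbouring genes on chromosome 5 that encode neutrophil attractants and ligands of Cxcr2. Cxcl1 stood at 9.32, 5.85 and 8.83 on Gata3+/- arrays and at 10.61, 9.44 and 10.99 on Gata3-/- arrays, a difference of 2.35 (SE 0.99, limma adjusted p = 0.229). Cxcl2 stood at 5.92, 2.71 and 6.18 and at 7.89, 6.55 and 8.05, a difference of 2.56 (SE 1.01, limma adjusted p = 0.205). Its value of 2.71 lies under the minimum of 4, so the size of that difference depends on a value near background. Cxcl3 stood at 7.55, 5.45 and 8.07 and at 9.33, 8.07 and 10.00, a difference of 2.11 (SE 0.82, limma adjusted p = 0.200). Array 2 was the lowest of its genotype for all 3 genes in both genotypes, and the genotypes did not overlap for Cxcl1 and Cxcl2. Cxcl5, another ligand of Cxcr2 in the same cluster, had means of 7.39 ± 0.53 and 6.71 ± 0.74 (SD, n = 3), differing by -0.68 (95% interval -1.77 to 0.41). Cxcr2 stood between 4.82 and 5.44 on all arrays, with a difference of -0.22. The neutrophil markers, taken without Cxcr2, had 4 of 9 measured, and by limma 0 passed, with 1 at an unadjusted p under 0.05. Of the 4, S100a8, S100a9 and Mmp8 had differences of 2.37 (SE 1.09), 2.63 (SE 0.99) and 1.64 (SE 1.05), and Mpo, a granule enzyme of early myeloid cells, one of -0.79. The median of the 4 was 2.01. Their mean log2 was 5.81, 5.96 and 7.99 on Gata3+/- arrays and 7.13, 8.50 and 8.52 on Gata3-/- arrays, which overlapped, and their part in these ligands was not tested.

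Because these 3 ligands varied together over the arrays, the 150 bases before their annotated starts are shown, from RefSeq on build GRCm38.p6. Capitals mark matches to the NF-κB consensus motif, the site of a transcription factor family that drives inflammatory genes. All 3 lie on the plus strand.
Cxcl1, chr5:90891095-90891244: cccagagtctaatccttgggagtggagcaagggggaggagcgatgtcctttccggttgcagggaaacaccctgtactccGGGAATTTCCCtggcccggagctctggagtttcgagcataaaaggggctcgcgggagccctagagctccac
Cxcl2, chr5:90903749-90903898: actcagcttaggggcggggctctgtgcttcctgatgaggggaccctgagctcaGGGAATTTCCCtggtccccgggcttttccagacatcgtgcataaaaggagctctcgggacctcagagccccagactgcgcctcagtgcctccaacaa
Cxcl3, chr5:90785951-90786100: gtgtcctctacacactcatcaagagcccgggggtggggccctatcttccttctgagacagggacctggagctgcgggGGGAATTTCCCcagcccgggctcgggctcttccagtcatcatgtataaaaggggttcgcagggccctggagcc

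The 3 windows held the same 10 bases, GGGAATTTCC, which began 71, 97 and 73 bases before the starts of Cxcl1, Cxcl2 and Cxcl3. These bases were picked as the consensus match that the 3 promoters share, so their presence in all 3 is not a test. The capitals run over 11 bases because the consensus also matched the opposite strand 1 base further on. On both strands the 10 bases were present in 29 of 32851 mouse promoters (0.09%), each taken from 250 bases before to 50 bases after a start. The NF-κB consensus was present in 1480 (4.51%). Among the 21 measured genes with a promoter in the table it was present in 6, Cxcl1, Cxcl2, Cxcl3, Cxcl10, Ccl9 and Ccr6. It was also present in Ackr2, Ccl20, Ccl27a and Ccr3, which were not measured, making 10 of the 40 genes with a promoter there. Ccl22 and Ccl17 were also lowest on Gata3+/- array 2 and higher in Gata3-/- arrays without overlap. Both had a promoter there and held no match. Ccr3 held the same 10 bases too, on the opposite strand. The 3 ligand genes are close relatives, so their shared bases are not independent matches. A match describes the letters and not a bound site, and no binding was measured in these cells.

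Cxcl10, an interferon-induced ligand of Cxcr3 on the same chromosome, is shown as a gene with the motif and a smaller spread. Its values spanned 0.72 over all arrays, against 5.14 for Cxcl1, 5.34 for Cxcl2 and 4.56 for Cxcl3. It stood at 10.49, 10.90 and 10.82 on Gata3+/- arrays and at 11.10, 11.21 and 10.88 on Gata3-/- arrays, and its difference of 0.33 (SE 0.14, limma adjusted p = 0.246) did not pass. Neither array numbered 2 was low. Capitals mark 2 matches to the NF-κB consensus and, upstream of them, 1 match to the core of the interferon-stimulated response element, GAAA repeated with 2 bases of any kind between, here GAAAGTGAAA. That core was searched on both strands and was present in 3.44% of mouse promoters and in none of the other 20 measured genes whose promoter was in the table; 9 measured genes had none there and were not searched. The gene lies on the minus strand, and 250 bases before its start are shown.
Cxcl10, chr5:92348890-92349139: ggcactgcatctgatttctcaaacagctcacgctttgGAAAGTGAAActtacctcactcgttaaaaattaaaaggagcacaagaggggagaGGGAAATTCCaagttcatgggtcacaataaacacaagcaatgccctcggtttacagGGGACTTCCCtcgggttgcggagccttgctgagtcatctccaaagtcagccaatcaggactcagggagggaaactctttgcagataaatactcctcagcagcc

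Its receptor Cxcr3, a receptor of activated T cells, stood at 5.90, 5.97 and 6.10 on Gata3+/- arrays and at 5.87, 5.88 and 5.80 on Gata3-/- arrays. The difference of -0.14 (SE 0.08) was the smallest among receptors whose genotypes did not overlap, and it did not pass (limma adjusted p = 0.351).

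Cxcr4, which holds progenitors next to stroma, stood at 8.12, 7.71 and 9.17 on Gata3+/- arrays and at 9.76, 9.06 and 9.57 on Gata3-/- arrays. Gata3+/- array 3 lay above Gata3-/- array 2, and the difference of 1.14 (SE 0.41, limma adjusted p = 0.172) did not pass. Its ligand Cxcl12, made by marrow stroma, stood at 8.76, 9.43 and 8.43 and at 7.66, 9.18 and 8.86, differing by -0.30 (95% interval -1.45 to 0.84). Unlike the stromal markers, Cxcl12 was highest on array 2 in each genotype. Cxcl16, a membrane-bound ligand of macrophages and dendritic cells whose receptor Cxcr6 was not measured, stood at 8.04, 6.72 and 9.28 and at 10.33, 8.92 and 9.88. Its difference of 1.70 (SE 0.71, limma adjusted p = 0.226) did not pass, and the genotypes overlapped.

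Ccr6, a receptor of dendritic cells, B cells and helper T cells, stood at 6.43, 7.69 and 6.78 on Gata3+/- arrays and at 6.20, 5.98 and 4.58 on Gata3-/- arrays. The genotypes did not overlap, with a difference of -1.38 (SE 0.53, limma adjusted p = 0.196) that did not pass. Ackr4, an atypical receptor that removes Ccl19, Ccl21 and Ccl25, stood at 5.45, 5.51 and 5.54 and at 6.11, 5.56 and 5.98, a difference of 0.38 (SE 0.15, limma adjusted p = 0.204). Gata3-/- array 2 lay next to the Gata3+/- values. Ackr1, an atypical receptor of venules and red cells that binds many inflammatory ligands, had means of 4.25 ± 0.06 and 4.33 ± 0.39 (SD, n = 3).

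**Figure D3:**
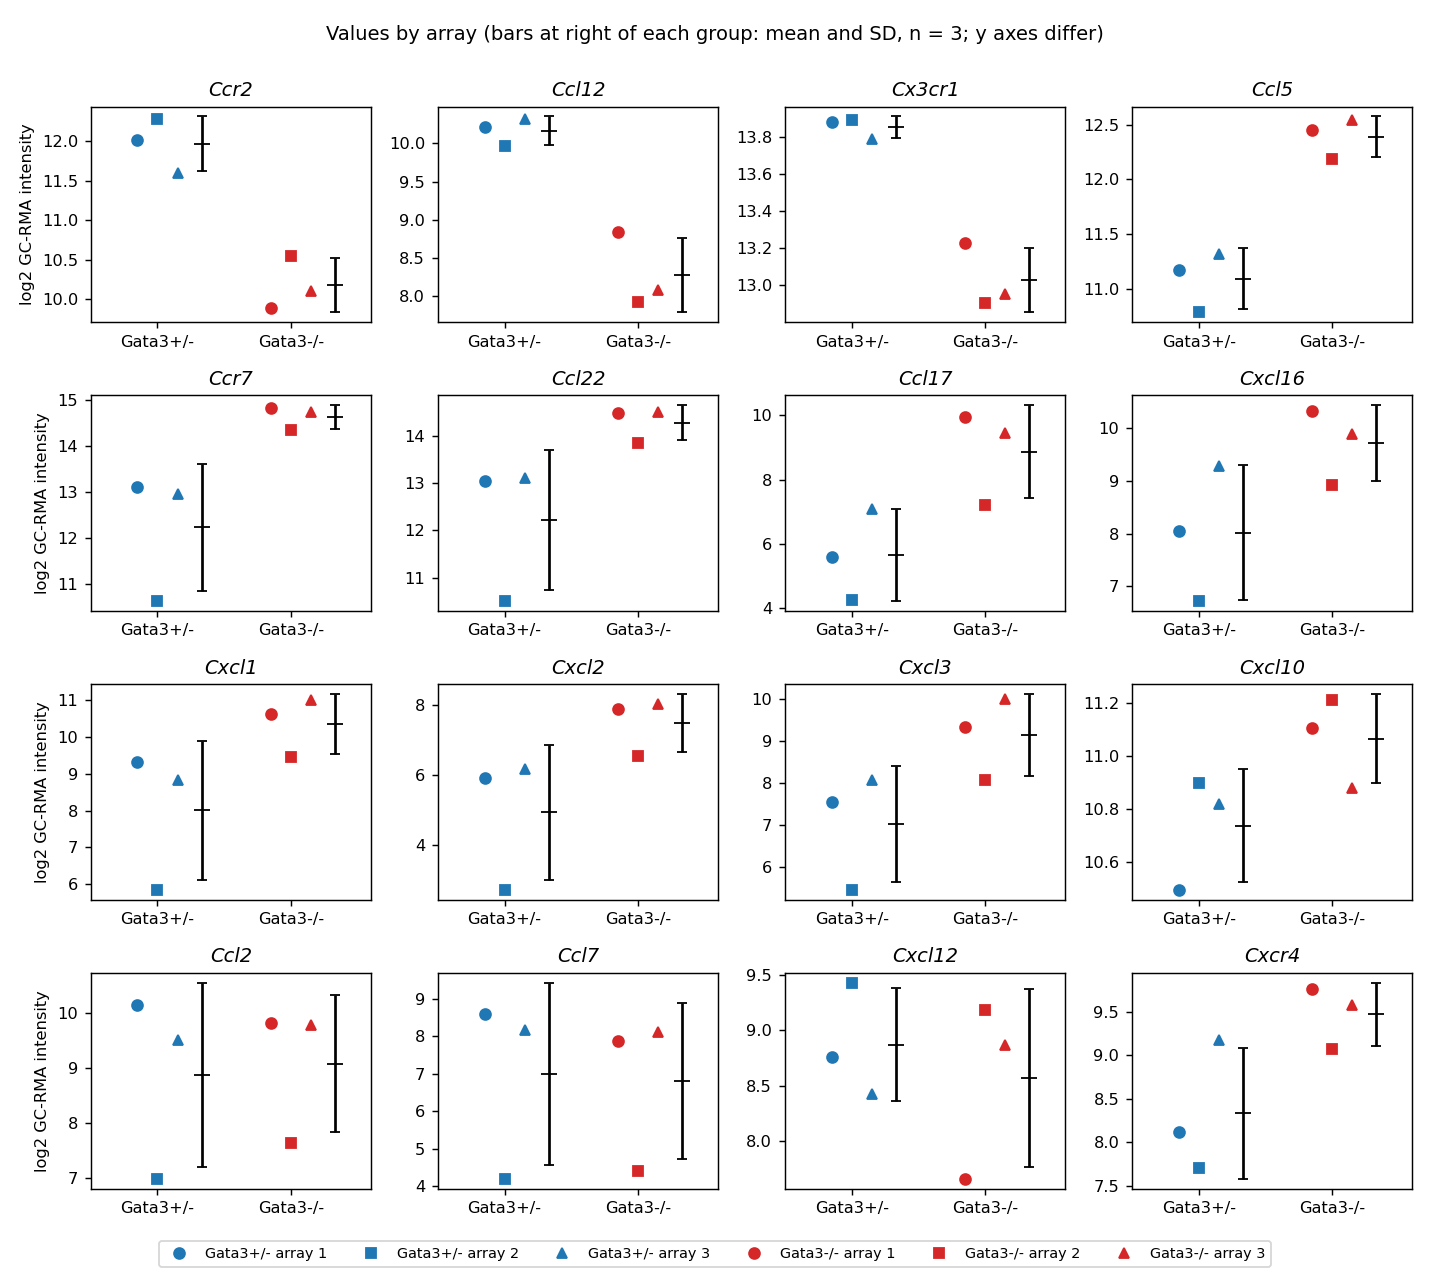
Log2 GC-RMA intensity of 16 chemokines and receptors on each array (points; blue Gata3+/-, red Gata3-/-, shape for the array number) with the mean and SD of each genotype (n = 3); the vertical axes differ between panels and do not start at 0. Ccr2, Ccl12, Cx3cr1 and Ccl5 separate by genotype with little spread, Ccl2 and Ccl7 are low on both arrays numbered 2, and Ccr7, Ccl22 and Cxcl1 are lowest on Gata3+/- array 2.

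Much of the spread lay on the arrays numbered 2. For 18 of the 30 genes (60.0%) array 2 was the lowest of its genotype in both genotypes, against 22.5% of all genes, and 15 of those 18 were ligands. Gata3+/- array 2 was the lowest of all 6 arrays for 13 of the 30 (43.3%), against 22.0% of all genes. Values of Gata3+/- arrays spanned more than 1 log2 unit for 43.3% of the 30 and for 6.95% of all genes. The OP9 stroma markers were lowest on the same arrays, at a mean of 7.77 and 7.31 over 17 measured markers against 8.61 to 9.69 on the others. Other lists stood apart there too. The erythroid and megakaryocyte markers had their lowest sums on them, 25626 and 13202 against 32606 to 45622. The measured NK markers were highest, at a mean of 10.32 and 11.38 against 9.32 to 9.78. So was the mast cell marker Cpa3, at 9.20 and 9.99 against 6.83 to 8.01. The part of any of these lists in the low ligands was not tested.

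A fit without both arrays numbered 2 was added after seeing the data. It left 0 of the 30 called by limma, with 15 at an unadjusted p under 0.05, and holds 2 arrays per genotype. In it Ccr7 differed by 1.76 (SE 0.11, adjusted p = 0.0600), Ccl22 by 1.41 (SE 0.09, adjusted p = 0.0643) and Cxcl2 by 1.92 (SE 0.14, adjusted p = 0.0672). Ccl17 differed by 3.35, Cxcl1 by 1.72, Cxcl3 by 1.86 and Cxcl16 by 1.45, all in the direction they had with 6 arrays. Leaving out Gata3+/- array 2 alone gave smaller differences, 1.27 for Cxcl1, 1.45 for Cxcl2, 1.32 for Cxcl3, 1.20 for Ccl22, 1.61 for Ccr7 and 2.52 for Ccl17. Among the genes that passed with 6 arrays Ccr2 differed by -1.82, Ccl12 by -1.82, Ccl24 by -1.29, Cx3cr1 by -0.75, Ccl5 by 1.25 and Cxcr5 by 1.41.

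**Figure D4:**
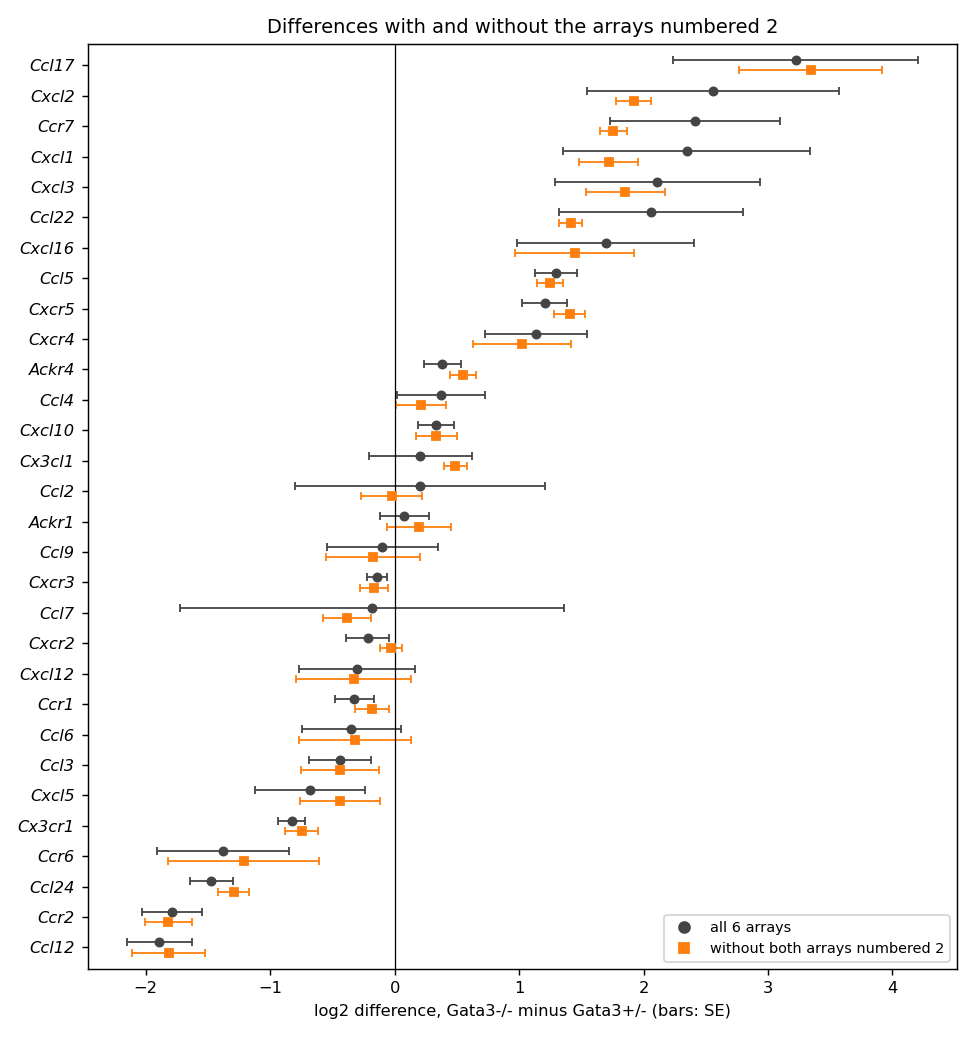
Log2 difference between Gata3-/- and Gata3+/- arrays of each measured gene with its SE (bars), from all 6 arrays (dark circles) and without both arrays numbered 2 (orange squares). Ccr7 moves from 2.42 to 1.76 and Ccl22 from 2.06 to 1.41 with smaller SE, while Ccr2 stays near -1.8.

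Leaving out any 1 array left 0 of the 6 genes called by limma, with 8 to 14 of the 30 at an unadjusted p under 0.05. Their adjusted p lay between 0.0623 and 0.116 in those fits and all 6 kept their sign, on arrays that had also picked them.

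The genes lie in clusters, and 10 of the 30 are on chromosome 11, where genes as a whole were shifted upward in Gata3-/- arrays. Its 886 measured genes had a median of 0.33, and 10.8% passed, 10.6% upward and 0.226% downward. The 10 chemokine genes there had a median of 0.05, with 5 positive and 5 negative differences and 4 above the chromosome's median. Ccl5 lay 0.97 above that median and Ccl12 lay 2.22 below it, and Ccl12 was 1 of 2 genes of the chromosome that fell. Ccr7 and Cxcl16 are also on chromosome 11 and lay 2.09 and 1.37 above the median. On chromosome 9, which holds Ccr1, Ccr2, Cx3cr1, Cxcr5 and Ackr4, 1 of the 5 rose and 2 fell, where of all 565 genes 5.66% passed, 1.95% upward and 3.72% downward. On chromosome 5, Ccl24 alone passed among 6 measured chemokine genes, where 4.74% of all genes passed, 1.19% upward and 3.56% downward. The part of the chromosome in the differences of its members was not tested.

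**Figure D5:**
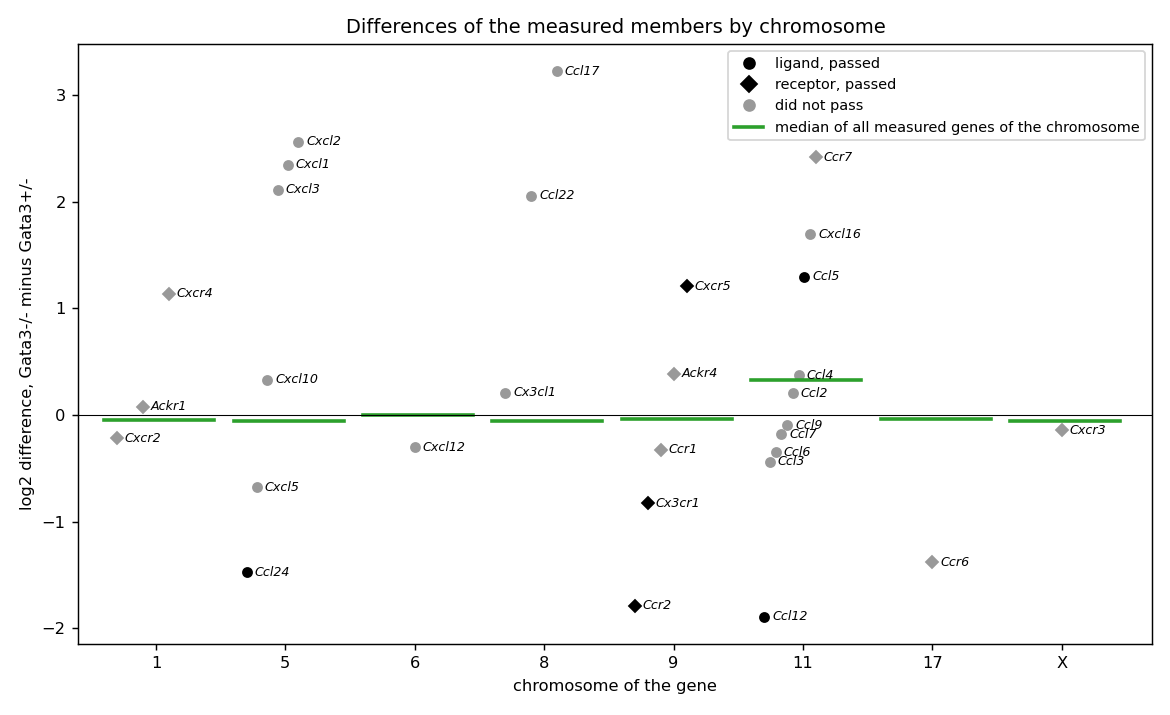
Log2 difference between Gata3-/- and Gata3+/- arrays (vertical axis) of each measured chemokine (circles) and receptor (diamonds) by chromosome, black where it passed, with the median of all measured genes of the chromosome as a green line. The line stands at 0.33 for chromosome 11 and within 0.06 of 0 for the others shown, and the chemokine genes of chromosome 11 spread from -1.89 to 2.42.

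Chemokine receptors signal through inhibitory G proteins to PI3-kinase gamma, Rac activators and arrestins. Of 52 genes listed for this pathway 46 were on the array and 44 measured, of which 3 rose, 0 fell and 41 did not pass, a share to be read beside the 5.27% of all genes. With the replicate number as a block, without a filter or without any 1 array, 0 of the list passed by limma, with 13 to 19 at an unadjusted p under 0.05. Dock2, the Rac activator of migrating leukocytes, rose by 0.80 (SE 0.14, limma adjusted p = 0.0411), and it is on chromosome 11. The cytokine receptor kinases Jak2 and Tyk2 rose by 0.80 (SE 0.12) and 0.67 (SE 0.12). Both are known mainly for cytokine signalling. The median of the 44 was -0.02, the same as for all genes. Rgs1, a brake on G protein signals from these receptors, was picked after its values were seen. It stood at 10.58, 8.54 and 10.38 and at 12.38, 11.72 and 12.28, and its difference of 2.29 (limma adjusted p = 0.0831) did not pass.

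Of 21 other chemoattractant genes and receptors listed beside the family 20 were on the array and 17 measured. Gpr183, the oxysterol receptor that positions B cells and dendritic cells, rose by 0.81 (SE 0.13, limma adjusted p = 0.0383), 0 fell and 16 did not pass. That 1 of 17 passed is close to the 5.27% of all genes. The platelet chemokines Pf4 and Ppbp, which carry other symbols and were picked after their values were seen, had differences of -0.28 and -0.66 and did not pass.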

How the data were processed

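The authors deposited linear GC-RMA intensity values for 45101 probe sets on 6 Affymetrix arrays, per the labels; GCOS is named in the submitters' processing notes, and the sources used here give no versions. The log2 of each intensity was taken here with no further normalization, and 64 control probe sets were left out. Probe sets at a log2 value of 4 or more on at least 3 arrays were fitted, 20102 in all, by lmFit and eBayes of limma 3.58.1 under R 4.3.3 with two-sided tests, and the procedure was tested on simulated data. Genes came from the platform annotation, matched by gene identifier to a RefSeq table of GRCm38.p6 (0 symbols changed), with 1 probe set per gene by highest mean over the 6 arrays. Of 32 further probe sets of these genes 12 were tested, 0 passed with limma, and all 12 had the sign of the main one. Promoters were matched by symbol for 40 of the 53 genes. Figures used matplotlib version 3.10.9.

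The members and lists were chosen with earlier results of these data known. Named were genes that passed, had an unadjusted p under 0.05, did not overlap between genotypes or were among the 5 highest ligands and 5 highest receptors by mean. The lists were chemokine signalling, other chemoattractants and markers of macrophages, dendritic cells, neutrophils, T cells, B cells, NK cells, mast cells, OP9 stroma, endothelium and erythroid cells. Of the marker lists not reported above, 3 of 7 NK, 1 of 8 mast cell, 5 of 8 endothelial and 7 of 8 erythroid and megakaryocyte markers were measured, and 0 passed with limma. Alternatives are given in the closing section.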

Additional observations from a re-analysis of the deposited data

How the results depend on the processing

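The 6 chemokine and receptor genes that passed were the same 6 under median centring, quantile normalization, the mean of probe sets per gene and robust eBayes with a variance trend. They were joined by Ccl17 and Cxcr4 under array weights, and with the filter raised to log2 6 Ccl24 was no longer tested and 5 passed. Without a filter 0 passed with limma, with 8 at an unadjusted p under 0.05, and 98 of all genes passed. Without both arrays numbered 2, chosen after seeing the data, 0 passed among these genes, all genes and the signalling list, with 15, 2013 and 13 at an unadjusted p under 0.05. Fits that each lack 1 array left 0 to 0 of these genes, 0 to 3 of all genes and 0 to 0 of the signalling list, with 8 to 14, 2038 to 2465 and 13 to 19 at an unadjusted p under 0.05. With the replicate block 6 passed, of which 5 were among the 6 without it; Cxcl3 passed (adjusted p = 0.0431) and Cxcr5 did not (adjusted p = 0.0544), and 298 of all genes passed against 543. Deviations of same-numbered arrays from their genotype means correlated by 0.005, 0.69 and 0.43 for numbers 1, 2 and 3. The labels do not say whether same-numbered arrays belong together. The main fit did not pair them, and these correlations do not settle whether it should. Counts of all genes were 824 with a variance trend and 1224 with array weights. For the signalling list, 3 in the report, the counts were 0 without a filter, 6 with a variance trend, 8 with array weights, 0 with the replicate block (18 at an unadjusted p under 0.05) and 5 with the mean of probe sets. The number of measured genes, 30, was 24 under the stricter filter and 32 when 1 array sufficed. No called difference changed sign; that of Ccl9, near 0, turned positive in 4 of the 6 fits without 1 array. Differences of dim genes such as Ccl24, Cxcr5, Cxcl2 and Ackr1 are limited by low signal over background.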
